A study of Mus musculus with 32 samples.

Results

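The 10 genes described here are genes of the endothelium, the cell layer that lines blood vessels, and were taken as a fixed list from the 55806 genes of the deposited tables. Kdr and Flt1 encode receptors for vascular endothelial growth factor (VEGF). Tek and Tie1 encode the angiopoietin receptor and its partner receptor. Eng encodes endoglin, a co-receptor for bone morphogenetic proteins. Pecam1 and Emcn encode surface glycoproteins, Plvap encodes the protein of the diaphragms that span endothelial pores, Ehd3 encodes an endocytic ATPase that in the kidney marks glomerular endothelium, and Sox17 encodes a transcription factor best known from arteries. All 10 identifiers were present in all of the tables.

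RNA was sequenced from whole mouse kidneys at E18.5 and from sorted kidney cells at E14.5 and E18.5. Six2-TGCtg/+ mice carry a transgene, made from a bacterial artificial chromosome, that expresses a GFP-Cre fusion from Six2 sequences in nephron progenitors, and Foxd1GC/+ mice express a GFP-Cre fusion in stromal progenitors from 1 Foxd1 allele, which no longer makes FOXD1. Whole kidneys came from Six2-TGCtg/+;Enl+/+ (ENLWT), Six2-TGCtg/+;EnlT1/+ (Six2-ENLT1) and Six2-TGCtg/+;EnlT3/+ (Six2-ENLT3), with 2 libraries each, and from Foxd1GC/+;Enl+/+ and Foxd1GC/+;EnlT1/+ (Foxd1-ENLT1), with 3 libraries each. T1 is an insertion and T3 a deletion-substitution in the YEATS domain of the chromatin reader ENL, both taken from Wilms tumor, and each was carried on 1 conditional (floxed) allele, which the labels write as EnlT1/+ or EnlT3/+ and which only cells that expressed Cre, and their descendants, had switched. The control kidneys of each line carried the same Cre transgene or allele, so the Six2-TGC transgene, for which aberrant Six3 expression is known, and the loss of 1 Foxd1 allele were shared by control and mutant. Sorted cells, positive for a tdTomato reporter that Cre switches on, came from ENLWT and ENLT1 kidneys, with 3 libraries per genotype from the Six2 line at E14.5 and 3 at E18.5, and 4 per genotype from the Foxd1 line at E18.5. The labels do not say whether libraries came from separate animals, so p-values measure the spread between these libraries.

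Vessels of the kidney form beside the nephrons, from endothelial cells that are drawn in and kept alive by growth factors made by the epithelium and the stroma. VEGF-A made by podocytes binds KDR on the endothelium of the glomerulus, FLT1 binds VEGF with high affinity and signals weakly, and angiopoietin 1 made by stromal and mural cells activates TEK, which angiopoietin 2 can counter. Most endothelial cells descend from neither Six2-expressing nor Foxd1-expressing progenitors, so that in these crosses most of them are not expected to carry the switched allele. In bulk RNA, fewer cells of a type and less RNA per cell cannot be told apart.

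Totals of counted reads ran from 106005614 to 157266455 in whole Six2 kidneys, from 67137194 to 79343015 in whole Foxd1 kidneys, from 76510702 to 137888792 in sorted Six2 cells and from 2557443 to 3508381 in sorted Foxd1 cells. Mllt1, the gene of ENL, had log2 fold changes of -0.26 in Six2-ENLT1, -0.33 in Six2-ENLT3 and -0.27 in Foxd1-ENLT1 (edgeR adjusted p = 0.0664, 0.0238 and 0.00102), all under the fold threshold of 1.5, and counts per gene cannot separate the mutant from the WT transcript. The sexes were not balanced in whole Six2 kidneys. The Y-linked gene Ddx3y had 15673 counts in ENLWT replicate 1, 0 in ENLWT replicate 2, 19243 and 14827 in Six2-ENLT1 and 0 in both Six2-ENLT3 libraries, whereas all 6 whole Foxd1 libraries had 0. The sorted Foxd1 libraries all had Ddx3y, at 226 to 363 counts, so they differed in sex from the whole Foxd1 kidneys. In sorted Six2 cells it was present in ENLWT replicate 1 and ENLT1 replicates 1 and 2 at E14.5. At E18.5 it was present in replicate 1 of each genotype, with 2 counts in ENLT1 replicate 3.

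The regulatory sequence just upstream of the start of 3 of these genes is shown because the ETS factors, a family that includes ERG and FLI1, act through the core GGAA, which is frequent near endothelial genes. RefSeq (GRCm38.p6) gives an upstream stretch of 250 bases for 7 of the 10 genes, all but Pecam1, Plvap and Sox17. Ehd3 was chosen because it was lower in all of the mutant kidneys, Tek because its response differed between the Cre lines, and Kdr as a VEGF receptor that passed no test in whole kidneys. Capitals mark GGAA or, for the same core on the other strand, TTCC, and each sequence runs 5′ to 3′ on the strand of its gene.

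Ehd3, chr17:73804591-73804840, plus strand: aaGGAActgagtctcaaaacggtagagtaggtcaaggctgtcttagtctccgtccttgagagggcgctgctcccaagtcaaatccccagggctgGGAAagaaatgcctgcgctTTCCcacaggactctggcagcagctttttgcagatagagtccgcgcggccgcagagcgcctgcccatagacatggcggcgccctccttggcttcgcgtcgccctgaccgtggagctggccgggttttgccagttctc

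Tek, chr4:94739039-94739288, plus strand: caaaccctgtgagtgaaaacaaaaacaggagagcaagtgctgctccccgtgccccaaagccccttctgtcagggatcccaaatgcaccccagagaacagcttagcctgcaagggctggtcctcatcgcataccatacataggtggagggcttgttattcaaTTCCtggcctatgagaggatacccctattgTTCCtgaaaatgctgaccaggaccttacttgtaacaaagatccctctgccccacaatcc

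Kdr, chr5:75978456-75978705, minus strand: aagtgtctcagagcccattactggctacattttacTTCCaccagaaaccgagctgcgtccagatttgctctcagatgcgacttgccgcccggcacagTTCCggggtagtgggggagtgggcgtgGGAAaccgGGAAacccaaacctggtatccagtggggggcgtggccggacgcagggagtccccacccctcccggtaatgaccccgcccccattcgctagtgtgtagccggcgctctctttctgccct

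The Ehd3 stretch lies inside a non-coding Ehd3 transcript of GENCODE vM21 that starts further upstream, and the Tek stretch overlaps no annotated exon. Ehd3 held 3 copies of the core, Tek 2 and Kdr 4. Of the other genes, Tie1 held 7, Flt1 and Emcn 4 each and Eng 3. The count in Tie1 was reached by 3.82% of the 32851 promoters in the table, whereas 93.4% of all promoters held at least 1 core and the median was 3, so apart from Tie1 these genes lay near the middle of all promoters. The letters ACAAT or ATTGT, a core bound by SOX factors such as SOX17, occurred 2 times in Tek, 1 time in Emcn and in none of the other 5 promoters, against 27.7% of all promoters with at least 1. A match of letters is a description and does not show binding.

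The levels of the 10 genes were compared between genes as counts brought to 1 library total, in CPM, per kilobase of exon. In ENLWT kidneys of the Six2 line the order was Plvap (51.3 CPM per kb), Pecam1 (33.1), Eng (29.4), Tie1 (24.3), Tek (24.0), Kdr (20.7), Emcn (17.4), Ehd3 (9.61), Flt1 (8.14) and Sox17 (3.78). Only Tie1 and Tek overlapped between the 2 libraries. In ENLWT kidneys of the Foxd1 line Plvap was again at the top, at 121 CPM per kb, followed by Eng (42.3), Tie1 (30.5), Pecam1 (29.6), Tek (20.7), Emcn (17.6), Kdr (16.0), Ehd3 (11.4), Sox17 (10.05) and Flt1 (5.67). Here Tie1 overlapped with Pecam1, and Ehd3 with Sox17. Plvap and Sox17 thus stood higher in Foxd1 than in Six2 controls, but the lines were sequenced separately and with different read lengths, and line and run cannot be told apart.

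**Figure D1:**
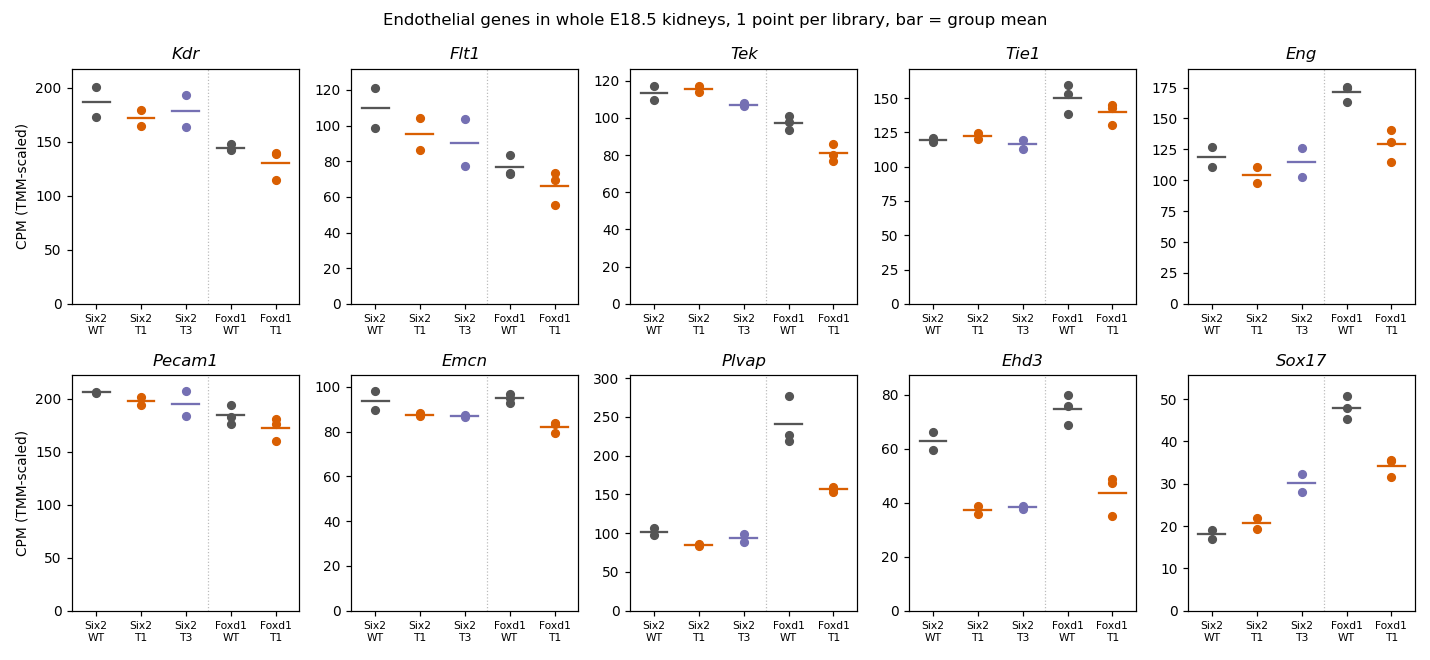
CPM of the 10 endothelial genes in whole E18.5 kidneys (y axis, TMM-scaled CPM from 0) for the 5 groups on the x axis, with 1 point per library and a bar at the group mean. Ehd3 is lower in every mutant library than in every ENLWT library of its line, Sox17 is highest among Six2 groups in Six2-ENLT3, and Plvap falls from 219 to 277 CPM in Foxd1 ENLWT to 153 to 160 CPM in Foxd1-ENLT1.

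Ehd3 was the 1 member that changed in all mutant kidneys. A gene was called when its adjusted p was under 0.05 and its fold change over 1.5 in edgeR's quasi-likelihood test. In the Six2 line, Ehd3 stood at 66.4 and 59.7 CPM in ENLWT, at 35.8 and 38.7 in Six2-ENLT1 and at 38.9 and 37.7 in Six2-ENLT3. The mutant libraries were all below the control libraries, and the 2 mutants overlapped with each other. Ehd3 fell by 0.76 on the log2 scale in Six2-ENLT1 (SE 0.074, n = 2 and 2, edgeR adjusted p = 0.000597), 1.69-fold, and by 0.72 in Six2-ENLT3 (SE 0.074, edgeR adjusted p = 0.000643), 1.65-fold. Both comparisons use the same 2 ENLWT libraries. In the Foxd1 line, Ehd3 stood at 68.8, 80.0 and 75.8 CPM in ENLWT and at 35.0, 48.7 and 47.2 in Foxd1-ENLT1, again without overlap. The fall was 0.78 on the log2 scale (SE 0.10, n = 3 and 3, edgeR adjusted p = 6.85e-05), 1.72-fold. The T1 effect in Foxd1 minus that in Six2 was -0.04 for Ehd3 (SE 0.16, adjusted p = 0.932), which leaves room for a difference of either sign within that error.

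Beside ENLWT replicate 1 alone, which like both Six2-ENLT1 libraries had Ddx3y counts, Ehd3 fell by 0.81 on the log2 scale in Six2-ENLT1 (adjusted p = 0.000263). Beside ENLWT replicate 2 alone, which like both Six2-ENLT3 libraries had none, it fell by 0.64 in Six2-ENLT3 (adjusted p = 0.000881). In these fits the lone control library is assumed to vary like the other libraries. The spread in them comes in part from libraries with the other Ddx3y state.

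Of all genes tested, 4.88% were called lower and 2.88% higher in Six2-ENLT1, and 5.28% and 4.34% in Six2-ENLT3. Against this, 1 of the 10 endothelial genes was called lower in each mutant, and 1 was called higher in Six2-ENLT3. The median log2 fold change of the members was -0.11 in Six2-ENLT1 and -0.08 in Six2-ENLT3, beside -0.01 and -0.002 over all genes tested. The members as a list therefore moved little in the Six2 line. In Six2-ENLT1, 5 members lay below and 1 above ENLWT without overlap, and in Six2-ENLT3, 3 below and 1 above, while 29.6% and 29.1% of all genes lay below without overlap and 25.4% and 27.0% above.

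Sox17 was higher in Six2-ENLT3. Its CPM was 19.1 and 17.0 in ENLWT, 19.4 and 22.01 in Six2-ENLT1 and 28.1 and 32.3 in Six2-ENLT3. The Six2-ENLT3 libraries stood above all others of the line, and both Six2-ENLT1 libraries stood just above the controls. The log2 fold change was 0.75 in Six2-ENLT3 (SE 0.11, edgeR adjusted p = 0.00313), 1.68-fold, and 0.20 in Six2-ENLT1 (SE 0.11, adjusted p = 0.304). Between the mutants, Sox17 differed by 0.55 on the log2 scale (SE 0.11), but this did not pass the adjustment (unadjusted p = 0.00121, edgeR adjusted p = 0.417). Both Six2-ENLT1 libraries had Ddx3y counts and both Six2-ENLT3 libraries had none, so sex and allele cannot be told apart in that difference. Beside ENLWT replicate 2 alone, which also had none, Sox17 was 0.84 higher on the log2 scale in Six2-ENLT3 (adjusted p = 0.00309). Between the mutants 0.00418% of all genes were called higher in Six2-ENLT3 and 0% lower, and none of the 10 members was called by edgeR or DESeq2, with 1 at an unadjusted p under 0.05. In the Foxd1 line Sox17 lay on the other side of the controls. It stood at 47.8, 50.8 and 45.3 CPM in ENLWT and at 31.5, 35.6 and 35.4 in Foxd1-ENLT1, a log2 fold change of -0.49 (SE 0.066, edgeR adjusted p = 9.63e-05) that passed the p threshold and stayed under the fold threshold. Of the exon bases of Sox17, 16.8% are shared with the antisense gene Gm37587, and reads were counted without strand. Gm37587 itself had 0 to 9 counts in the whole-kidney libraries.

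Plvap was the other member called in the Foxd1 line. Its CPM was 219, 277 and 226 in ENLWT and 158, 160 and 153 in Foxd1-ENLT1. The control library of replicate 2 stood above the others, and the 3 mutant libraries lay close together and below all controls. Plvap fell by 0.62 on the log2 scale (SE 0.076, edgeR adjusted p = 4.25e-05), 1.54-fold. Without ENLWT replicate 2 the fall was 0.50 (edgeR adjusted p = 0.000239), under the fold threshold. In Six2-ENLT1 the CPM of Plvap was 86.3 and 83.5 against 97.4 and 106 in ENLWT, a log2 fold change of -0.26 (SE 0.071, adjusted p = 0.0482) below the fold threshold. The difference between the lines in the T1 effect on Plvap was -0.37 (SE 0.13, adjusted p = 0.0981).

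In Foxd1-ENLT1 all 10 members had a log2 fold change below 0, with a median of -0.24 beside -0.003 over all genes tested. With the fold threshold 2 of the 10 were called lower and 0 higher, beside 7.53% and 2.65% of all genes. At an adjusted p under 0.05 with any fold, 6 of the 10 were lower, beside 17.0% of all genes. These were Ehd3 and Plvap, then Sox17, Eng, Tek and Emcn. Eng stood at 163, 176 and 175 CPM in ENLWT and at 115, 131 and 141 in Foxd1-ENLT1, a log2 fold change of -0.41 (SE 0.069, edgeR adjusted p = 0.000565). Emcn stood at 95.2, 92.8 and 96.9 CPM in ENLWT and at 79.6, 83.7 and 83.4 in Foxd1-ENLT1, a log2 fold change of -0.21 (SE 0.050, adjusted p = 0.00625). Neither overlapped between the genotypes, and the change in Emcn was small beside those in Ehd3 and Plvap. In all, 7 members lay below the controls without overlap, the 6 above and Kdr, while 23.5% of all genes lay below without overlap and 23.0% above. The VEGF receptors Kdr and Flt1 had log2 fold changes of -0.14 (SE 0.069, adjusted p = 0.132) and -0.21 (SE 0.090, adjusted p = 0.0884). Pecam1 and Tie1 had -0.10 (SE 0.059, adjusted p = 0.234) and -0.11 (SE 0.063, adjusted p = 0.221). An adjusted p over the threshold does not show that these 4 did not differ.

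Tek responded differently to T1 in the Cre lines. Its CPM was 93.4, 101 and 97.6 in Foxd1 ENLWT and 76.5, 86.0 and 80.2 in Foxd1-ENLT1, a log2 fold change of -0.27 (SE 0.057, edgeR adjusted p = 0.00309). In the Six2 line it was 117 and 110 CPM in ENLWT, 114 and 117 in Six2-ENLT1 and 106 and 108 in Six2-ENLT3, with log2 fold changes of 0.03 (SE 0.055) and -0.08 (SE 0.056). The difference between the lines was tested with an interaction term on the 10 ENLWT and ENLT1 whole-kidney libraries. It was -0.31 for Tek (SE 0.089, adjusted p = 0.0465) and -0.71 for Sox17 (SE 0.12, adjusted p = 0.00206). These were the 2 of 10 members called as lower in Foxd1, with 0 called higher, beside 3.55% and 4.82% of all genes. The Tek difference lay close to the threshold and was lost under 10 of 17 other settings, with adjusted p values up to 0.215. It was lost without Six2 ENLWT replicate 2, either Six2-ENLT1 library, any 1 of the Foxd1 ENLWT libraries or Foxd1-ENLT1 replicates 1 or 3 (adjusted p = 0.0961, 0.117, 0.215, 0.0600, 0.0753, 0.0894, 0.0786 and 0.0948, in that order). The Sox17 difference was kept under all 17. A run effect of unequal size in the 2 genotypes would enter this term too. So could an effect of sex. Both Six2-ENLT1 libraries and Six2 ENLWT replicate 1 had Ddx3y counts, while Six2 ENLWT replicate 2 and the whole Foxd1 libraries had none. The part of sex in these differences was not tested.

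**Figure D2:**
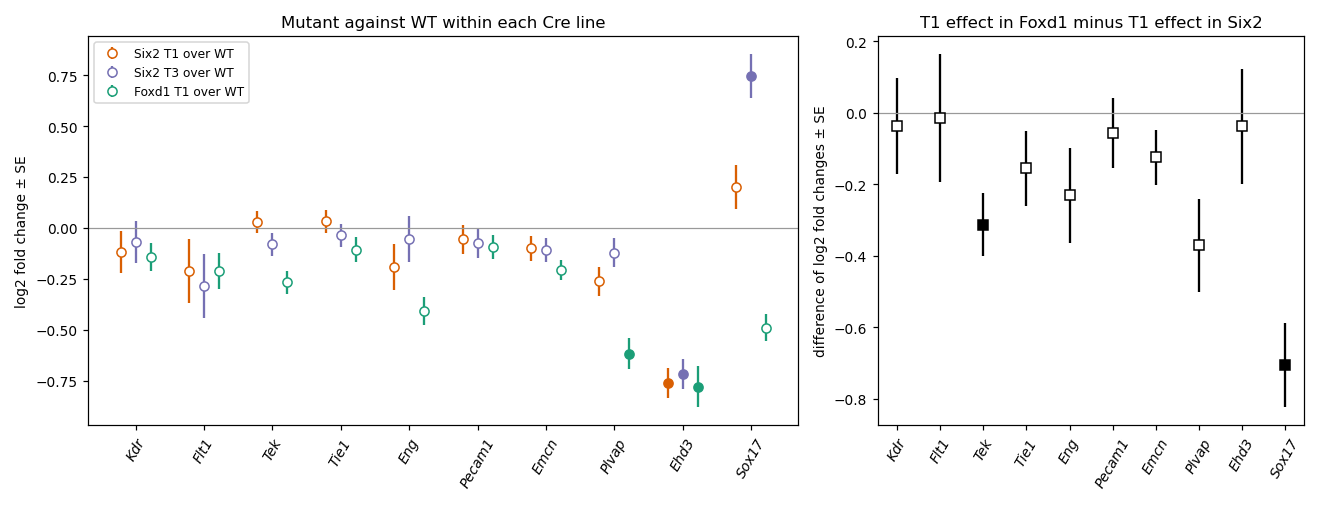
Left, log2 fold change of each member in whole kidneys (y axis) with its SE as a bar, in Six2-ENLT1, Six2-ENLT3 and Foxd1-ENLT1 against ENLWT of the same line, filled where called. Right, the T1 effect in Foxd1 minus that in Six2 with its SE, filled where the adjusted p was under 0.05, which holds for Tek (-0.31) and Sox17 (-0.71), while Ehd3 (-0.04) lies near 0.

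The level of a member relative to the geometric mean of the other 9 in the same library shows which genes moved apart from the list. The ratio for Ehd3 was 0.665 and 0.577 in Six2 ENLWT, 0.384 and 0.387 in Six2-ENLT1 and 0.373 and 0.386 in Six2-ENLT3. It was 0.577, 0.637 and 0.643 in Foxd1 ENLWT and 0.382, 0.472 and 0.456 in Foxd1-ENLT1. Ehd3 thus fell relative to the other endothelial genes in every mutant library. The ratio for Sox17 was 0.167 and 0.142 in Six2 ENLWT, 0.194 and 0.207 in Six2-ENLT1 and 0.260 and 0.326 in Six2-ENLT3, and it was 0.385, 0.384 and 0.362 in Foxd1 ENLWT and 0.340, 0.333 and 0.331 in Foxd1-ENLT1. For Plvap the Foxd1 ratios were 2.09, 2.53 and 2.17 in ENLWT and 2.03, 1.76 and 1.69 in Foxd1-ENLT1, without overlap, whereas those of the Six2 groups ran from 0.911 to 1.12 and overlapped. With 3 libraries against 3, a two-sided exact permutation test cannot go below p = 0.1, and with 2 against 2 not below 0.333, so these ratios are given as values.

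**Figure D3:**
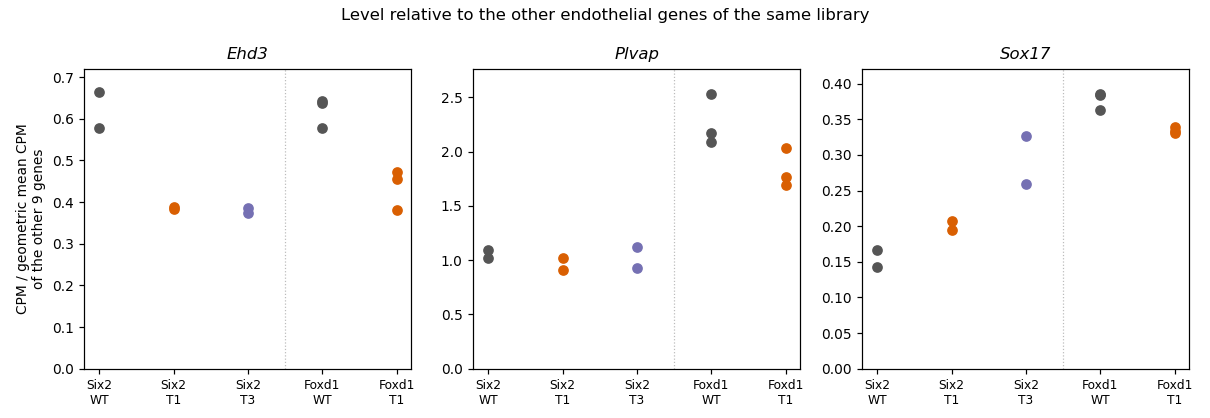
CPM of Ehd3, Plvap and Sox17 divided by the geometric mean CPM of the other 9 endothelial genes of the same library (y axis from 0), with 1 point per whole-kidney library and the 5 groups on the x axis. Ehd3 ratios are 0.577 to 0.665 in all ENLWT libraries and 0.373 to 0.472 in all mutant libraries.

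The ligands of these receptors were examined in a list of 8 VEGF ligands and co-receptors and a list of 5 angiopoietin genes and Tie partners. Angpt2, the context-dependent ligand of TEK, was called lower in all mutant kidneys. It fell from 32.3 CPM ± 0.434 (SD, n = 2) in Six2 ENLWT to 20.2 ± 0.586 (n = 2) in Six2-ENLT1 and 20.2 ± 2.53 (n = 2) in Six2-ENLT3, and from 31.3 ± 0.413 (n = 3) to 16.3 ± 1.73 (n = 3) in Foxd1-ENLT1. The Six2 calls each rested on 1 library, with an adjusted p of 0.0508 without Six2-ENLT1 replicate 1 and a log2 fold change of -0.55, under the fold threshold, without Six2-ENLT3 replicate 2. Angpt1, the activating ligand, was called in Foxd1-ENLT1 alone, where it fell from 40.9 CPM ± 2.71 to 26.4 ± 1.09 (log2 fold change -0.64, edgeR adjusted p = 8.73e-06), and its T1 effect differed between the lines by -0.60 (SE 0.12, adjusted p = 0.00552). Vegfa, the main ligand of KDR, fell by 0.72 on the log2 scale in Foxd1-ENLT1 (SE 0.074, edgeR adjusted p = 9.72e-06). In Six2-ENLT1 and Six2-ENLT3 its log2 fold changes of -0.51 (adjusted p = 0.00695) and -0.38 (adjusted p = 0.0208) were under the fold threshold, and its T1 effect was not shown to differ between the lines (-0.23, SE 0.12, adjusted p = 0.290). Vegfd, a ligand of FLT4 and in some species of KDR, fell by 0.93 in Foxd1-ENLT1 (adjusted p = 1.27e-06) and had a log2 fold change of 0.29 in Six2-ENLT1 (adjusted p = 0.0174, under the fold threshold), a difference between the lines of -1.24 (SE 0.11, adjusted p = 1.83e-05). The co-receptor gene Nrp2 rose by 0.71 and 0.94 in Six2-ENLT1 and Six2-ENLT3, and by 0.583 in Six2-ENLT1 without ENLWT replicate 1, under the fold threshold.

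By list, 1 of 8 VEGF genes was called higher and 0 lower in each Six2 mutant, and 0 higher and 2 lower in Foxd1-ENLT1. Over all genes the shares were 2.88% higher and 4.88% lower in Six2-ENLT1, 4.34% and 5.28% in Six2-ENLT3, and 2.65% and 7.53% in Foxd1-ENLT1. Of the 5 angiopoietin genes, 1 was called lower in each Six2 mutant and 2 in Foxd1-ENLT1. Of 9 partners of endoglin, receptors, SMADs and targets of the bone morphogenetic protein pathway, 1 was called, the target gene Id1, which rose by 0.83 in Six2-ENLT3 (adjusted p = 0.0221). That call was lost without either Six2-ENLT3 library (adjusted p = 0.0690 without replicate 1 and 0.117 without replicate 2).

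Of the 16 other pan-endothelial genes, 0 were called in either Six2 mutant by edgeR or DESeq2, and their medians were -0.04 and -0.01. At an unadjusted p under 0.05 there were 1 in Six2-ENLT1 and 3 in Six2-ENLT3. In Foxd1-ENLT1 all 16 had a log2 fold change below 0, with a median of -0.24, and 1 was called, Egfl7, a secreted endothelial factor that fell by 0.59 (SE 0.055, edgeR adjusted p = 3.59e-06). Without ENLWT replicate 1 or Foxd1-ENLT1 replicate 1 the fall was 0.56 and 0.57, under the fold threshold. The members and this list thus had nearly the same median in Foxd1-ENLT1. The shares called lower over all genes were 4.88%, 5.28% and 7.53% in Six2-ENLT1, Six2-ENLT3 and Foxd1-ENLT1. Those called higher were 2.88%, 4.34% and 2.65%. The 1 call of 16 in Foxd1-ENLT1 lay near the share over all genes. The interaction called 3 of the 16 as lower in Foxd1 and 0 as higher, beside 3.55% and 4.82% of all genes. They were Erg (-0.39), Egfl7 (-0.34) and Icam2 (-0.32). All 3 lay close to the threshold. Erg was lost without any 1 of 5 libraries, Six2 ENLWT replicate 2, Six2-ENLT1 replicates 1 and 2 and Foxd1-ENLT1 replicates 1 and 3 (adjusted p up to 0.111). Egfl7 was lost without any 1 of 5, the same 3 of the Six2 line and Foxd1 ENLWT replicates 1 and 3 (adjusted p up to 0.137). Icam2 was lost without any 1 library except Six2 ENLWT replicate 2 (adjusted p up to 0.206).

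Vessel subtypes were examined with shorter lists, whose transcripts also occurred in sorted cells. In sorted Six2 ENLWT cells at E18.5 the arterial list summed to 395 to 411 CPM, beside 302 to 321 in whole Six2 ENLWT kidney. The venous and capillary list summed to 575 to 601 in sorted Foxd1 ENLWT cells, beside 819 to 849 in whole kidney. Over all genes, 4.88%, 5.28% and 7.53% were called lower in Six2-ENLT1, Six2-ENLT3 and Foxd1-ENLT1, and 2.88%, 4.34% and 2.65% higher. Gja5, the arterial gap junction gene that is also expressed in renin cells of the kidney, was the 1 of 6 arterial genes called in each mutant. It fell by 0.97 in Six2-ENLT1, 0.96 in Six2-ENLT3 and 0.94 in Foxd1-ENLT1. Vwf, the gene of von Willebrand factor, fell by 0.84, 0.73 and 0.67 in the same order. It was the 1 of 6 venous and capillary genes called in Six2-ENLT1 and in Foxd1-ENLT1, and Esm1, a tip cell gene, was called beside it in Six2-ENLT3 (-0.71). The Vwf calls were not stable. In Six2-ENLT1 the log2 fold change was -0.56 without ENLWT replicate 2, and the adjusted p was 0.112 and 0.105 without Six2-ENLT1 replicates 1 and 2. In Six2-ENLT3 the adjusted p was 0.0560, 0.0522 and 0.138 without ENLWT replicate 2, Six2-ENLT1 replicate 2 and Six2-ENLT3 replicate 2, and that of Esm1 was 0.0660 without Six2-ENLT3 replicate 2. In Foxd1-ENLT1 the log2 fold change of Vwf was -0.51 without replicate 2. Of 4 other genes of glomerular endothelium, 0 were called lower in any mutant kidney by edgeR, with 2, 2 and 3 of the 4 at an unadjusted p under 0.05 in Six2-ENLT1, Six2-ENLT3 and Foxd1-ENLT1. Some had lower values that stayed under the fold threshold. Plat, the gene of tissue plasminogen activator, had log2 fold changes of -0.46 and -0.54 in the Six2 mutants (edgeR adjusted p = 0.0155 and 0.00716). At E18.5 Plat stood at 506, 492 and 451 CPM in sorted Six2 ENLWT cells and at 358, 320 and 389 in sorted ENLT1 cells. Whole Six2 ENLWT kidney had 118 and 135, so Plat in whole kidney is not a reading of endothelium alone. In Foxd1-ENLT1, Hecw2, Gata5 and Tbx3 had -0.48, -0.40 and -0.18 (edgeR adjusted p = 0.00143, 0.0263 and 0.0381). Tbx3 stood at 142 to 160 CPM in sorted Foxd1 ENLWT cells, beside 77.8 to 82.3 in whole Foxd1 ENLWT kidney. Gata5 rose by 0.76 and 0.79 in the Six2 mutants and was not called in Foxd1-ENLT1, and the call in Six2-ENLT1 was lost without either of its libraries (adjusted p = 0.0694 and 0.0604 without replicates 1 and 2). In sorted Six2 cells at E14.5 Gata5 was called higher, at 0.706 to 1.39 CPM in ENLWT and 3.77 to 4.58 in ENLT1. At E18.5 it stood at 0.170 to 0.341 and 0.546 to 0.777 CPM. The part of these cells in the whole-kidney rise was not tested. The lymphatic markers Lyve1 and Ccl21a rose by 0.75 and 1.52 in Six2-ENLT1 and by 0.92 and 1.76 in Six2-ENLT3, while Ccl21a fell by 0.76 in Foxd1-ENLT1. The Lyve1 call in Six2-ENLT1 had an adjusted p of 0.0510 without replicate 2. Ccl21a belongs to a family of near-identical copies, so its counts are uncertain, and Lyve1 is also expressed by macrophages.

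Markers of other cell types moved beside these genes, and their part in the changes of Ehd3, Plvap, Sox17 and Tek was not tested. All 6 podocyte markers were called lower in both Six2 mutants, and 0 of 6 in Foxd1-ENLT1 by edgeR or DESeq2, where 3 had an unadjusted p under 0.05. Without ENLWT replicate 2, 5 of the 6 were called in Six2-ENLT3. The summed CPM of the 6 was 908 to 1029 in Six2 ENLWT, 278 to 294 in Six2-ENLT1 and 277 to 297 in Six2-ENLT3, and 1106 to 1148 in Foxd1 ENLWT against 833 to 1088 in Foxd1-ENLT1. The podocyte sums were thus lower in the mutant than in the control libraries, without overlap, in both lines, but in the Foxd1 line they nearly touched. There 2 of the 6 markers had a log2 fold change above 0 and the median was -0.17, beside -1.79 in Six2-ENLT1 and -1.82 in Six2-ENLT3. Of all genes, 23.5% lay below the controls without overlap in Foxd1-ENLT1. Of 8 macrophage markers, 6 were called higher in each Six2 mutant (sums of 126 to 128 CPM in ENLWT, 177 to 189 in Six2-ENLT1 and 178 to 196 in Six2-ENLT3) and 0 in Foxd1-ENLT1 by edgeR or DESeq2, where 5 had an unadjusted p under 0.05. Of 8 markers of pericytes, mesangium and smooth muscle, Myh11 was called lower in all mutants (by 1.15, 0.97 and 1.01) and Acta2 in Foxd1-ENLT1 (by 0.60). In the order Six2-ENLT1, Six2-ENLT3 and Foxd1-ENLT1, the median of the 8 was -0.18, -0.15 and -0.14. Of the 8, 1, 0 and 3 lay above 0, up to 0.37 in Foxd1-ENLT1. Over all genes, 4.88%, 5.28% and 7.53% were called lower and 2.88%, 4.34% and 2.65% higher. The fall of Acta2 was 0.51, 0.58 and 0.57 without ENLWT replicate 2, Foxd1-ENLT1 replicate 1 and Foxd1-ENLT1 replicate 2, under the fold threshold. The sums of these 8 markers were 1309 to 1376 CPM in Six2 ENLWT, 1126 to 1129 in Six2-ENLT1, 1086 to 1146 in Six2-ENLT3, 1128 to 1216 in Foxd1 ENLWT and 934 to 1018 in Foxd1-ENLT1. Of the red cell markers and of the platelet markers, 0 were called by edgeR or DESeq2 in the 3 comparisons with ENLWT, at summed red cell levels of 2232 to 6151 CPM. At an unadjusted p under 0.05 there were 3, 0 and 3 of the 6 red cell markers and 1, 2 and 1 of the 4 platelet markers tested, in the order Six2-ENLT1, Six2-ENLT3 and Foxd1-ENLT1.

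**Figure D4:**
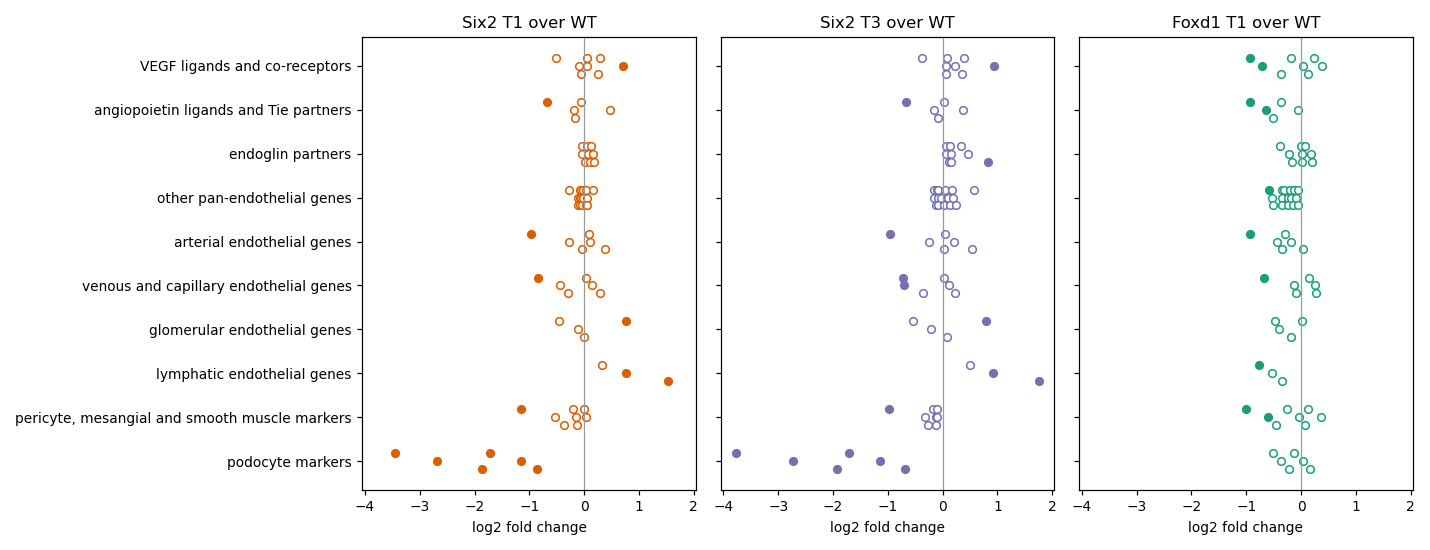
Log2 fold changes (x axis, 1 scale for all 3 panels) of the genes of 10 other lists in Six2-ENLT1, Six2-ENLT3 and Foxd1-ENLT1 against ENLWT, with 1 point per gene, filled where called. All 6 podocyte markers are filled and below 0 in both Six2 mutants and none is filled in Foxd1-ENLT1, where all 16 other pan-endothelial genes lie below 0.

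The sorted cells show how much of these transcripts the Cre-positive lineages themselves hold or carry over. Whole kidneys and sorted cells were made with different kits and scaled separately, so the percentages are approximate. In sorted ENLWT cells of the Six2 line at E14.5 the members had a median of 1.17% of their CPM in whole E18.5 ENLWT kidney, and at E18.5 4.93%, with a range of 2.35% to 11.8%. In sorted ENLWT cells of the Foxd1 line the median was 32.5% of whole Foxd1 ENLWT kidney, with a range of 17.7% for Kdr to 83.6% for Emcn. The 16 other pan-endothelial genes had medians of 1.92%, 4.82% and 27.2% in the same order, with ranges of 0.130% to 61.5%, 1.05% to 138% and 12.8% to 214%. The highest in sorted Six2 cells was Cldn5, a tight junction gene, at 61.5% and 138%, and Egfl7 and Rasip1 stood at 22.3% and 23.6% at E14.5. Apart from such genes, and from Plvap and Ehd3 at E14.5, the members and these 16 genes were low in sorted Six2 cells. At E18.5 the arterial and glomerular lists were not low, with sums of 395 to 411 and 456 to 514 CPM in sorted ENLWT cells. Whole Six2 ENLWT kidney had 302 to 321 and 244 to 278. The venous and capillary list had 452 to 536 in the sorted cells, beside 834 to 903 in whole kidney. In sorted Foxd1 ENLWT cells the 8 macrophage markers stood at 31.1% (Ptprc) to 315% (Cd68) of whole kidney and the platelet gene Pf4 at 364%, so transcripts of other cell types were also present there. Their part in the endothelial percentages was not tested.

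Plvap and Ehd3 stood apart in sorted Six2 cells at E14.5. Plvap was at 22.8, 23.8 and 21.9 CPM in ENLWT, 22.4% of its level in whole E18.5 kidney, and Ehd3 at 12.01, 10.8 and 12.04 CPM, 18.4%. The other 8 lay between 0.509% and 2.18%. Sox17 was near the limit of counting there, with 3, 11 and 23 counts, where 3 counts are the floor used. The ratio of Plvap and of Ehd3 to Pecam1 (0.509%) in these cells was therefore not that of whole E18.5 kidney. At E18.5 their percentages were 6.69% and 10.3%, beside 7.65% for Pecam1. All whole kidneys were of E18.5, so stage and sorting cannot be told apart in the E14.5 percentages.

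**Figure D5:**
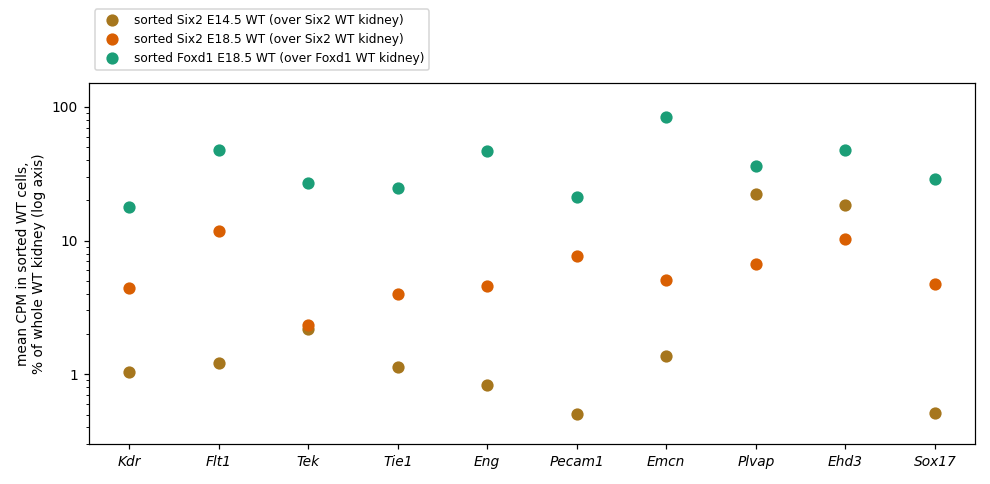
Mean CPM of each member in sorted ENLWT cells as a percentage of its mean CPM in whole E18.5 ENLWT kidney of the same Cre line (y axis, log scale), for sorted Six2 cells at E14.5 and E18.5 and sorted Foxd1 cells at E18.5. Plvap (22.4%) and Ehd3 (18.4%) stand above the other members at E14.5, and the Foxd1 points (17.7% to 83.6%) lie above all others.

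Of the 10 members, 2 were called between genotypes in sorted Six2 cells at E14.5, 1 at E18.5 and 0 in sorted Foxd1 cells. At E14.5, Plvap was lower in ENLT1, at 12.5, 10.8 and 16.7 CPM without overlap with ENLWT, a log2 fold change of -0.76 (SE 0.15, edgeR adjusted p = 0.0119). Without ENLT1 replicate 1 the adjusted p was 0.0522. Emcn was called higher, at 3.48, 1.89 and 4.36 CPM in ENLT1 against 1.01, 1.56 and 1.28 in ENLWT (log2 fold change 1.36, SE 0.31, adjusted p = 0.0231), and this call was lost without ENLWT replicates 1 or 3 or ENLT1 replicates 1 or 3, with adjusted p values up to 0.0834. Tek, at 6.29, 2.51 and 7.81 CPM in ENLT1 and 2.54, 2.105 and 2.77 in ENLWT, was high in the same 2 libraries as Emcn and was not called (adjusted p = 0.0680), although it passed without ENLT1 replicate 2 (adjusted p = 0.00242) and under DESeq2 (adjusted p = 0.00377). Ehd3 had a log2 fold change of 0.26 (SE 0.10, adjusted p = 0.143). The share called over all genes was 4.11% higher and 2.28% lower.

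At E18.5 in sorted Six2 cells, Pecam1 was the 1 member called. It fell from 14.7, 15.3 and 17.2 CPM in ENLWT to 8.14, 10.3 and 6.09 in ENLT1, by 0.94 on the log2 scale (SE 0.16, edgeR adjusted p = 0.000951), beside 6.14% of genes called higher and 5.54% lower. Kdr stood at 8.26, 7.42 and 8.92 CPM in ENLWT and at 5.74, 6.59 and 5.49 in ENLT1, without overlap, a log2 fold change of -0.46 (SE 0.13, adjusted p = 0.0255) under the fold threshold. Ehd3 had a log2 fold change of 0.09 (SE 0.16, adjusted p = 0.756) at 5.02 to 7.73 CPM, so that the lower level found in whole Six2-ENLT1 kidneys was not detected in the Cre-positive cells. Other cell types were present at different levels in the same libraries. Red cell markers summed to 104 to 210 CPM in ENLWT and 1551 to 2274 in ENLT1, macrophage markers to 33.3 to 36.7 and 70.0 to 85.7, and podocyte markers to 2901 to 3393 and 209 to 262. Their part in the Pecam1 and Kdr values was not tested.

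In sorted Foxd1 cells none of the 10 members was called by edgeR or DESeq2, with 3 members at an unadjusted p under 0.05, beside 3.63% of all genes called higher and 2.18% lower. Ehd3 was at 42.8, 34.4, 35.4 and 29.7 CPM in ENLWT and at 25.2, 30.0, 31.3 and 26.5 in ENLT1 (log2 fold change -0.34, SE 0.13, adjusted p = 0.101), and Plvap had a log2 fold change of -0.19 (SE 0.14, adjusted p = 0.466). All 10 members overlapped between the genotypes, a count given without the share over all genes and so not read as particular to the members. Macrophage markers summed to 81.4 to 201 CPM in ENLWT and 197 to 274 in ENLT1, with 5 of the 8 called higher, and their part in the members' values was not tested. These libraries held 14 to 84 counts of Sox17 and 68 to 154 of Ehd3, so changes of the size seen in whole kidney were harder to resolve.

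The ligand genes in sorted cells are given beside those of whole kidney. In sorted Foxd1 cells Angpt1 fell by 1.00, Vegfd by 0.87 and Angpt2 by 0.62 on the log2 scale (edgeR adjusted p = 0.000729, 6.71e-06 and 0.0282), and Nrp2 rose by 0.83. The Angpt2 call was lost without ENLWT replicates 1 or 3 or ENLT1 replicates 2, 3 or 4, with adjusted p values up to 0.1103. In sorted Six2 cells Angpt2 was called higher, by 1.88 at E14.5 and 1.31 at E18.5, on the other side of 0 from whole Six2-ENLT1 kidney (-0.68). At E14.5, 4 of the 5 angiopoietin genes were called higher, beside 4.11% of all genes. Among the 4 was Angpt1, which rose from 8.42, 9.67 and 9.80 CPM to 15.6, 17.01 and 14.3 (log2 fold change 0.77, edgeR adjusted p = 0.00221). At E18.5 Angpt1 had a log2 fold change of -0.28 (adjusted p = 0.154). Vegfd rose by 2.93 at E14.5 and 1.063 at E18.5 in sorted Six2 cells (edgeR adjusted p = 0.000235 and 0.00169). Vegfa fell by 0.70 in sorted Six2 cells at E18.5 (adjusted p = 1.52e-06) and was not called in sorted Foxd1 cells (-0.06, SE 0.087, adjusted p = 0.716).

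Over the 12 whole-kidney libraries, after the mean of each Cre line was removed, the genes most like the mean of the 10 members were Ptprb (Pearson r = 0.966), a phosphatase of endothelium that acts on TEK, then Syne1, Slc9a3, Slc9a3r2, Heg1 and Xdh, with r from 0.965 down to 0.9605 among 20010 genes. These values are a description, since the libraries share genotype and depth. Among the members themselves, Eng was most like the mean of the other 9 (r = 0.925) and Sox17 least (r = 0.295), and among the 16 other pan-endothelial genes r ran from 0.269 for Cldn5 to 0.904 for Mmrn2. Mmrn2 held place 127 and Cldn5 place 7325 of the 20010 genes. Many other genes thus followed the mean of the members more closely than any of these 16.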

How the data were processed

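Whole E18.5 kidneys (12 libraries) and sorted tdTomato-positive cells (20 libraries) were sequenced after poly(A)-based library preparation, with the KAPA Stranded mRNA-Seq kit for whole kidneys and SMART-Seq v4 Ultra Low Input for sorted cells. The authors deposited raw counts of reads per gene, made with HISAT2 and HTSeq without strand on mm10. The annotation release is not given in the sources used here. Of 55806 identifiers, 55536 were matched to a name in GENCODE vM21.

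Counts were analysed with edgeR 4.0.16 in R 4.3.3. Low genes were removed with edgeR's filterByExpr at its settings of 10 counts and a total of 15, TMM set the scale of each library, and p-values of the quasi-likelihood tests were adjusted over all genes tested (Benjamini-Hochberg). The whole Six2 genotypes shared 1 fit, and other comparisons used their own groups. The interaction was fitted on both lines with line as a term and no fold threshold. The CPM values were computed from the TMM-scaled counts, and 3 counts were taken as the floor. The test scripts were checked on simulated data. Plots were drawn with matplotlib 3.10.9.

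The members and the gene lists were chosen with earlier results of these data known. The genes named were the 10 members, Mllt1, Ddx3y as a sex check, up to 4 called genes of each list with the largest change in each comparison, and the 6 genes most like the members. Exceptions, chosen after their values were seen, were Vegfa and Vegfd where not called, Angpt1 where not called, Plat, Hecw2, Tbx3 and Gata5 where not called, and Cldn5, Mmrn2, Rasip1, Ptprc, Cd68 and Pf4. Alternatives were DESeq2 1.42.0, other size factors and filters, a replicate block, other edgeR tests, fits of 2 genotypes, other fold thresholds and leaving out each library. No 2 libraries of a group agreed within sampling noise (chi-square per degree of freedom of at least 1.33 over 33 pairs). Columns of per-sample values left unused numbered 0.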

Additional observations from a re-analysis of the deposited data

Results flagged for a closer look

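The T1 effect on Tek, the angiopoietin receptor gene, differed between the Cre lines, by -0.31 on the log2 scale in Foxd1 minus Six2 whole kidney (edgeR interaction adjusted p = 0.0465), with a log2 fold change of -0.27 in Foxd1-ENLT1 and 0.03 in Six2-ENLT1. This difference was lost under 10 of 17 other settings, with adjusted p values up to 0.215. All 3 Foxd1-ENLT1 libraries lay below all 3 of their controls, whereas Six2-ENLT1 and Six2 ENLWT overlapped. Six2-ENLT3, which is not part of this difference, lay below both without overlap, at 106 and 108 CPM.

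The T1 effect on Sox17 also differed between the lines, by -0.71 (adjusted p = 0.00206), from -0.49 in Foxd1-ENLT1 and 0.20 in Six2-ENLT1, and the genotypes did not overlap in either line. Sex was unbalanced in the Six2 comparison and not in the Foxd1 comparison, and its part in the Tek and Sox17 differences was not tested.

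In sorted Foxd1 ENLT1 cells, 1 of the 4 libraries stood apart for Tek, at 15.5 CPM beside 22.98, 22.96 and 21.9 CPM. The gap from the lowest library to the next was 0.861 of the range of the group. Sorted ENLWT libraries of the same line ran from 14.47 to 34.98 CPM. Of 20 sets of 4 libraries examined, 1 had such a gap, and chance gives it in about 1 of 20.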

How the results depend on the processing

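The fall of Ehd3 kept its direction and its call under all alternatives in Six2-ENLT1, Six2-ENLT3 and Foxd1-ENLT1 except a fold change over 2, with log2 fold changes from -0.81 to -0.68, -0.77 to -0.64 and -0.86 to -0.64. The rise of Sox17 in Six2-ENLT3 did so too, at 0.64 to 0.85. With a fold change over 2, the number of members called was 0 in Six2-ENLT1, 0 in Six2-ENLT3, 0 in Foxd1-ENLT1, 1 in the E14.5 sorted Six2 cells and 0 in those of E18.5. With no fold threshold it was 2 in Six2-ENLT1, 6 in Foxd1-ENLT1 and 2 in sorted Six2 cells at E18.5. With RLE size factors the interaction called 1 member, and it called 3 with library size only or with no filter on low counts. Leaving out 1 library at a time gave 1 to 2 members in Foxd1-ENLT1, 1 to 2 in the interaction, 0 to 3 in the E14.5 sorted Six2 cells and 1 to 2 in those of E18.5. The count was 0 at E14.5 without ENLT1 replicate 1 and 3 without ENLT1 replicate 2. Members in ENLWT Six2 cells sorted at E14.5 had medians of 1.11% to 1.28% of whole E18.5 kidney, and in those sorted at E18.5 of 4.47% to 5.35%. The cause of these changes was not tested.

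Several uncalled values near 0 turned sign. With library size only, Pecam1 had a log2 fold change of 0.017 in Six2-ENLT1, and Kdr 0.0049, Tie1 0.035 and Eng 0.017 in Six2-ENLT3. The interaction of Flt1 was 0.0013 with DESeq2 and 0.0018 with RLE size factors. Without 1 library, Kdr ran from -0.22 to 0.017 in Six2-ENLT1 and from -0.18 to 0.066 in Six2-ENLT3, where Pecam1 ran from -0.15 to 0.013, Tie1 from -0.069 to 0.0078 and Eng from -0.21 to 0.093. The interaction ran from -0.18 to 0.10 for Kdr, -0.20 to 0.16 for Flt1 and -0.12 to 0.099 for Ehd3. In sorted Six2 cells at E18.5, Ehd3 ran from -0.063 to 0.24.

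Groups share replicate numbers, and the deviations of same-numbered libraries from their group means had correlations of -0.079 to 0.14. In whole Six2 kidneys, with 2 libraries a group, the 2 deviations mirror each other and cannot show pairing. These values do not decide whether the numbers pair the libraries, and the main tests did not pair them. With a replicate block the interaction called 1 member, Sox17, and Emcn in sorted Six2 cells at E14.5 was lost (adjusted p = 0.0546) while Tek there was called (adjusted p = 0.0478). Over all genes the block gave 643 higher and 1105 lower calls in Six2-ENLT1 beside 690 and 1169, and 514 and 1469 in Foxd1-ENLT1 beside 534 and 1517.

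Over all genes, Six2-ENLT3 against Six2-ENLT1 gave 1 higher and 0 lower, but 58 and 17 with DESeq2, 207 and 93 with no filter on low counts, 69 and 20 with edgeR's exact test and 6 and 8 in a fit of those 2 genotypes. With genes over 1 CPM only, 347 were higher in Foxd1-ENLT1 beside 534. The interaction gave 1100 higher and 810 lower, but 1812 higher with DESeq2, 1655 and 1475 with no filter on low counts and 1227 lower with the likelihood-ratio test. With no fold threshold there were 1201 higher and 2192 lower in Six2-ENLT1, 1739 and 2450 in Six2-ENLT3 and 3300 and 3432 in Foxd1-ENLT1. A fold change over 2 left 383 and 737, 572 and 772, and 243 and 841. Sorted Foxd1 cells, at 2557443 to 3508381 counted reads, were the shallowest, which limits what can be resolved there.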
